A study of Arabidopsis thaliana with 12 samples.

Results

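The class I KNOX genes and 3 BELL genes whose proteins pair with theirs were followed in shoot apices of Arabidopsis thaliana. They are 7 of the 27416 gene rows of the count table, chosen by gene identifier: STM (AT1G62360), KNAT1 (AT4G08150), KNAT2 (AT1G70510) and KNAT6 (AT1G23380) of the KNOX group, and BLH9 (AT5G02030), PNF (AT2G27990) and ATH1 (AT4G32980) of the BELL group. All 7 passed the filter on low counts, which kept 18807 genes. The 12 libraries came from 3 genotypes with 4 libraries each: the line rAP2-VENUS #A6 (rAP2-VENUS below), the mutant ap2-12, and wild type of the accession Col-0 (WT). Plants of all genotypes had days with 16 h of light (8 h dark), and apices were collected and pooled per library once the main stem was 1 cm tall. The labels name rAP2-VENUS after the floral regulator APETALA2 (AP2) and the fluorescent protein VENUS. They do not say which promoter drives the construct, or whether the line also carries an altered AP2 gene, and it is a single line. Library totals ran from 9680133 to 15152704 reads, and a member had between 114 and 1283 reads in a library.

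KNOX and BELL proteins are the plant members of the TALE class of homeodomain transcription factors, whose homeodomain carries extra residues in a loop. A KNOX protein and a BELL protein bind each other, and the pair enters the nucleus and binds DNA together. Class I KNOX genes are expressed in the shoot meristem and shut off where organs form. STM keeps meristem cells undifferentiated. KNAT1, also called BREVIPEDICELLUS, shapes internodes and pedicels, while KNAT2 and KNAT6 act in the meristem and at organ boundaries. BLH9 (PENNYWISE, also REPLUMLESS) and PNF (POUND-FOOLISH) are close relatives needed for the inflorescence to form flowers. ATH1 acts at the base of the shoot and with STM in meristem maintenance.

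The tissue label was checked against markers. The stem cell organiser gene WUS, the receptor gene CLV1 and the floral meristem genes AP1 and LFY had reads in every library, and the summed level of the 5 listed meristem markers was 228 to 253 CPM in rAP2-VENUS, 146 to 153 CPM in ap2-12 and 246 to 286 CPM in WT. CPM are read counts set to a common library total, here scaled by the TMM method. Of the 4 that passed the filter, AP1 (log2 fold change -1.13, edgeR adjusted p = 6e-07) and LFY (-0.60, 0.00389) were lower in ap2-12 than in WT. AP1 was the largest part of the summed level, with means of 143 CPM in rAP2-VENUS, 79.3 in ap2-12 and 174 in WT. WUS and CLV1 were not called between ap2-12 and WT. Between rAP2-VENUS and ap2-12, WUS was called higher in rAP2-VENUS (0.56, edgeR adjusted p = 0.0347), and CLV1 was not called (0.30, 0.0668). The stem cell marker CLV3 had 0 to 5 reads a library, and the root marker WOX5 had 0 to 6. AP2 itself averaged 47.0 ± 7.77 CPM in rAP2-VENUS, 17.2 ± 2.40 CPM in ap2-12 and 57.5 ± 23.8 CPM in WT (SD, n = 4 each). Its log2 fold change in ap2-12 vs WT was -1.73 (SE 0.23, edgeR adjusted p = 0.000302), and in rAP2-VENUS vs WT -0.28 (0.898). Reads of the construct and of the normal gene are not told apart by these counts.

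The bases just before the start of STM, ATH1 and BLH9 are shown because STM and ATH1 had the largest differences of the 7 genes in ap2-12 and BLH9 the smallest. Each is the 300 bases upstream of the gene start in RefSeq's annotation of assembly TAIR10.1, 5′ to 3′ on the strand of the gene, found by gene identifier. The count table names TAIR10 and gives no coordinates. The STM window is chr1:23062064-23062363 (minus strand), that of ATH1 is chr4:15918154-15918453 (minus strand) and that of BLH9 is chr5:395267-395566 (plus strand). Capitals mark TTTGTT, an element that AP2 has been reported to bind, and TGAC, the core that TALE homeodomains bind, each on either strand.
STM: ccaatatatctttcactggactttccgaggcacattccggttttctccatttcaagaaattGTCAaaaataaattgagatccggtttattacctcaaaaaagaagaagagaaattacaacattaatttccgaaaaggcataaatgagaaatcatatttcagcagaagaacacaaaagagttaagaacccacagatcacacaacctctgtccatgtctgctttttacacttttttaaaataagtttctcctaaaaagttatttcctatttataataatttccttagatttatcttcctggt
ATH1: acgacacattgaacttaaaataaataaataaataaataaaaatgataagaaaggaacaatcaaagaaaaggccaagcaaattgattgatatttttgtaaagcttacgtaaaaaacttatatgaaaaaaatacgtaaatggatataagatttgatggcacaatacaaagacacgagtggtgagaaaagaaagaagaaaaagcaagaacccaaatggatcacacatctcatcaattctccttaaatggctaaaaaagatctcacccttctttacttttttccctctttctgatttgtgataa
BLH9: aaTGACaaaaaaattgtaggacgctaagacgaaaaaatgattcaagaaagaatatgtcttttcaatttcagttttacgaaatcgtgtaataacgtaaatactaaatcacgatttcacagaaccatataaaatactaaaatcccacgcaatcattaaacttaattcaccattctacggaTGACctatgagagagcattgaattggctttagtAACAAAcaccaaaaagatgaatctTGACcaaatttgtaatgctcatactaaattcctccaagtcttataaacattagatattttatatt
The STM window held 1 TGAC and no TTTGTT, the ATH1 window held neither, and the BLH9 window held 3 TGAC and 1 TTTGTT. Among the 7 genes, 4 windows held TGAC (STM, KNAT1, KNAT2 and BLH9) and 2 held TTTGTT (KNAT6 and BLH9). Of 27443 such windows of protein-coding genes, 81.0% held TGAC and 61.4% held TTTGTT. The longer TGACAG, which contains TGAC, was in 0 of the 7 windows and in 6.88% of all. These are matches of letters and not shown binding sites. No other annotated gene overlapped any of the 7 genes or their windows.

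In ap2-12 apices, 4 of the 7 genes were lower than in WT: STM, ATH1, PNF and KNAT6. KNAT1 and KNAT2 had negative differences that did not pass the test, and BLH9 stood at nearly the same level. Genes were called at an adjusted p under 0.05 in edgeR's quasi-likelihood test with Benjamini-Hochberg adjustment over all genes kept. By that rule 9.59% of all genes were called lower in ap2-12, 5.65% higher and 15.2% in either direction, so the 4 of 7 stand beside a broad background of change. The median log2 fold change was -0.52 over the 7 genes and 0.00 over all genes tested. In these whole apices, fewer cells that express a gene and less of its RNA per cell cannot be told apart.

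**Figure D1:**
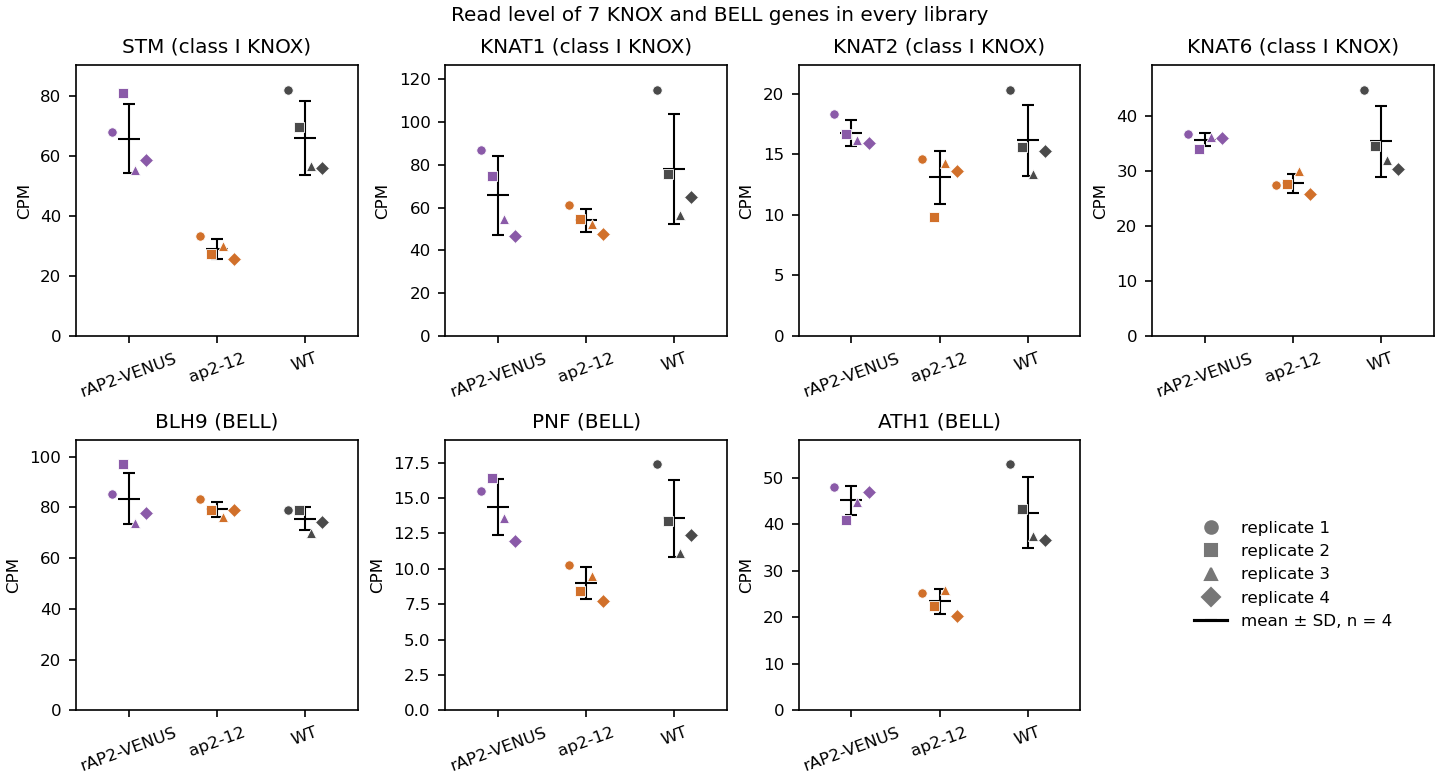
Read levels of the 7 genes in every library, in CPM on the vertical axis, by genotype; symbols give the replicate number and the black marks the mean and SD of 4 libraries. The 4 ap2-12 libraries lie below all WT libraries for STM, KNAT6, PNF and ATH1, and overlap with them for KNAT1, KNAT2 and BLH9.

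STM had the largest fitted fall of the 7 genes in ap2-12. Its libraries had 33.5, 27.5, 30.1 and 25.7 CPM in ap2-12 (replicates 1 to 4), against 82.2, 69.7, 56.9 and 56.2 CPM in WT. All 4 mutant values lay under the lowest WT value, as was the case for 11% of all genes. The log2 fold change was -1.18 (SE 0.15, 95% interval -1.51 to -0.85), which is a 2.27-fold lower level, at an edgeR adjusted p of 0.000206. The call held in all 17 alternative analyses, with log2 fold changes from -1.26 to -1.06.

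ATH1, a BELL partner of STM, had 25.2, 22.4, 25.8 and 20.2 CPM in ap2-12, against 52.9, 43.2, 37.4 and 36.5 CPM in WT. The groups did not overlap. At a log2 fold change of -0.86 (SE 0.12) its level was 1.82-fold lower, with an edgeR adjusted p of 0.000457. This call too held in all 17 alternatives (-0.91 to -0.74).

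PNF had the fewest reads per base of the 7 genes, with 10.3, 8.44, 9.53 and 7.70 CPM in ap2-12, against 17.4, 13.4, 11.1 and 12.4 CPM in WT. The highest ap2-12 library and the lowest WT library were close but did not overlap. The log2 fold change was -0.59 (SE 0.15, edgeR adjusted p = 0.0216). Leaving out WT replicate 1 (adjusted p = 0.0548), ap2-12 replicate 2 (0.069) or ap2-12 replicate 4 (0.0725) ended the call.

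KNAT6 passed the threshold narrowly. It had 27.5, 27.6, 30.1 and 25.9 CPM in ap2-12, against 44.8, 34.6, 32 and 30.4 CPM in WT, so the highest mutant library and the lowest WT library nearly met. The log2 fold change was -0.35 (SE 0.11, edgeR adjusted p = 0.0497). The call was lost in 13 of 17 alternatives, with adjusted p up to 0.155. Among them were all omissions of a library but those of WT replicates 3 and 4. Without WT replicate 1, the WT library with the highest level, the log2 fold change was -0.22 (adjusted p = 0.0967).

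KNAT1 and KNAT2 did not pass the test, and the WT libraries of KNAT1 were the most spread of the 4 KNOX genes. KNAT1 had 61.1, 54.8, 52.6 and 47.9 CPM in ap2-12, against 115, 75.7, 56.4 and 65.1 CPM in WT, and its groups overlapped. Its log2 fold change was -0.52 (95% interval -1.01 to -0.04, edgeR adjusted p = 0.147), and -0.28 without WT replicate 1 (adjusted p = 0.406). A fit with replicate number as a further term (the replicate block) called KNAT1 lower, at -0.48 (SE 0.11, edgeR adjusted p = 0.00667). It did not call KNAT2 (-0.30, 0.0829). The numbers were not taken to pair ap2-12 with WT, because their replicate 2 libraries correlated at -0.01 across genes. Replicates 1, 3 and 4 correlated at 0.60, 0.47 and 0.39, so whether the numbers pair these genotypes is undecided. The call of KNAT1 depends on which of the fits is used. KNAT2 had 14.6, 9.85, 14.3 and 13.6 CPM in ap2-12, against 20.3, 15.6, 13.4 and 15.3 CPM in WT (log2 fold change -0.30, interval -0.62 to 0.02, adjusted p = 0.205). For these genes the intervals include changes as large as that of KNAT6 and also values near 0.

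BLH9, the BELL gene with the highest level, had 83.1, 78.9, 76.1 and 78.9 CPM in ap2-12, against 79.0, 79.1, 69.9 and 74.2 CPM in WT. All 8 libraries lay within a narrow range and the groups overlapped. The log2 fold change was 0.07 (SE 0.08, adjusted p = 0.642), with an interval of -0.11 to 0.25 that excludes a fall of the size fitted for its relative PNF. Set against BLH9 in the same library, which removes the scaling, STM had 32.6 to 40.4 reads per 100 BLH9 reads in ap2-12 and 75.7 to 104 in WT. ATH1 had 25.6 to 33.8 reads per 100 BLH9 reads in ap2-12 and 49.3 to 67.0 in WT, and PNF had 9.75 to 12.5 in ap2-12 and 15.9 to 22 in WT. None of these ranges overlapped. BLH9 was taken as the reference with its level known, so these ratios restate the falls given above and are no separate support for them. Such ratios were not computed for KNAT1, KNAT2 and KNAT6 or for all genes, so the separation is not shown to be particular to STM, ATH1 and PNF.

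In rAP2-VENUS, 0 of the 7 genes were called against WT, where 0.627% of all genes were called. At an unadjusted p under 0.05 in this fit, which has no replicate term, the count was also 0. DESeq2 and limma-voom called 0 as well. With the replicate block, the fit that takes up the pairing of these libraries, 0 were called too, but the SE of some genes was smaller. That fit called 424 of all genes, against 118 without the block. Intervals and unadjusted p-values are given here only without the block. With it KNAT1 stood at -0.24 (SE 0.11 against 0.22 without it, edgeR adjusted p = 0.333). BLH9 stood at 0.14 (SE 0.06 against 0.08, 0.309). STM had 68.3, 81.2, 55.5 and 58.8 CPM in rAP2-VENUS, inside the range of 56.2 to 82.2 CPM in WT but for replicate 3. Its log2 fold change was 0.00 with a 95% interval of -0.32 to 0.31. ATH1 had 47.9, 40.9, 44.8 and 47.0 CPM in rAP2-VENUS, against 36.5 to 52.9 CPM in WT (0.09, interval -0.17 to 0.35). These intervals exclude differences of the size fitted for STM and ATH1 in ap2-12.

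The other members overlapped WT too. KNAT1 averaged 65.7 ± 18.5 CPM in rAP2-VENUS and 77.9 ± 25.7 CPM in WT (SD, n = 4 each), and its interval, -0.73 to 0.24, was the widest. BLH9 had the smallest unadjusted p, 0.115 in edgeR's fit without the replicate block. It averaged 83.4 ± 10.2 CPM in rAP2-VENUS and 75.5 ± 4.40 CPM in WT. KNAT6 was at 34.1 to 36.7 CPM in rAP2-VENUS, against 30.4 to 44.8 CPM in WT. PNF was at 12.0 to 16.4 CPM in rAP2-VENUS and 11.1 to 17.4 CPM in WT, and KNAT2 at 15.9 to 18.3 CPM in rAP2-VENUS and 13.4 to 20.3 CPM in WT.

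Between rAP2-VENUS and ap2-12, 4 of 7 genes were called, all higher in rAP2-VENUS, where 11.7% of all genes were called higher and 19.6% in either direction. This comparison shares its ap2-12 libraries with the one against WT, so both sets of values depend on the same mutant libraries. STM was higher by a log2 fold change of 1.18 (SE 0.15, edgeR adjusted p = 0.000137), ATH1 by 0.95 (SE 0.12, 0.000149), PNF by 0.68 (SE 0.15, 0.00762) and KNAT6 by 0.36 (SE 0.11, 0.0339). The call of KNAT6 was lost on leaving out any library but ap2-12 replicate 3 (adjusted p = 0.0529 to 0.103 in those 7 fits), and the other calls held. KNAT2 stood at 0.36 (adjusted p = 0.107) with no overlap between the groups, as for 13.9% of all genes. BLH9 stood at 0.07 (0.601) and KNAT1 at 0.28 (0.427).

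**Figure D2:**
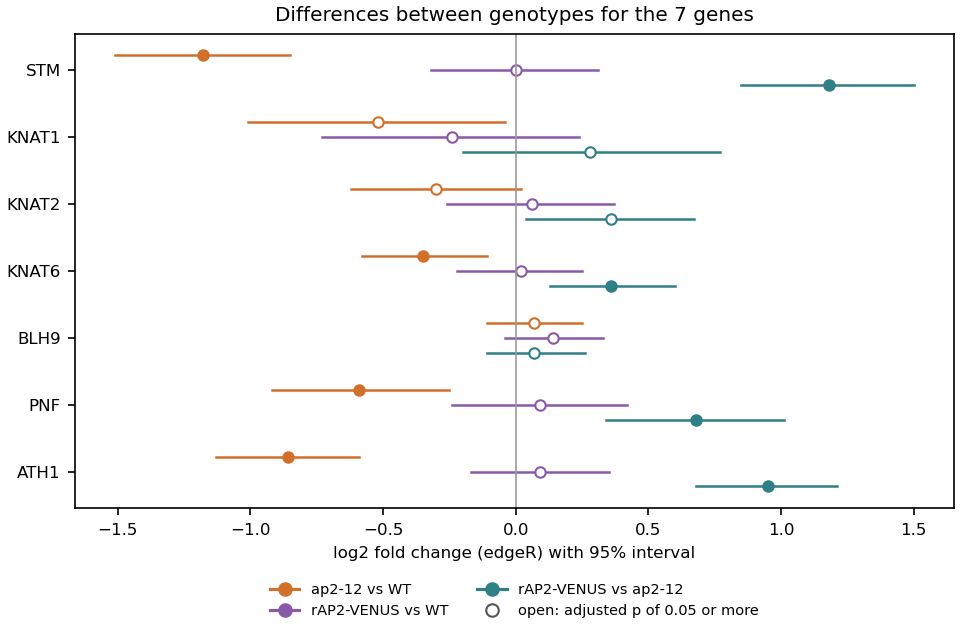
Log2 fold changes of the 7 genes (horizontal axis) with 95% intervals from edgeR for the 3 comparisons; filled points have an adjusted p under 0.05. STM, KNAT6, PNF and ATH1 are filled in both comparisons that involve ap2-12, and no point is filled for rAP2-VENUS vs WT.

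Levels of different genes were compared per kb of annotated exon, which ran from 1.407 kb for KNAT6 to 2.58 kb for ATH1. In rAP2-VENUS the order was STM (38.7 ± 6.76 CPM per kb), BLH9 (38.5 ± 4.68), KNAT1 (32.6 ± 9.18), KNAT6 (25.4 ± 0.818), ATH1 (17.5 ± 1.21), KNAT2 (9.17 ± 0.602) and PNF (6.49 ± 0.884), as mean and SD over 4 libraries. The first 4 genes overlapped with their neighbours in this order, and the last 3 each stood apart. In ap2-12 the order was BLH9 (36.6 ± 1.32), KNAT1 (26.8 ± 2.71), KNAT6 (19.8 ± 1.23), STM (17.1 ± 2.00), ATH1 (9.07 ± 1.01), KNAT2 (7.16 ± 1.2) and PNF (4.05 ± 0.522). There the only overlapping neighbours were KNAT6 with STM, and ATH1 with KNAT2. In WT STM (38.9 ± 7.23), KNAT1 (38.7 ± 12.7) and BLH9 (34.8 ± 2.03) led and overlapped, followed by KNAT6 (25.2 ± 4.60), ATH1 (16.5 ± 2.92), and KNAT2 (8.84 ± 1.61) with PNF (6.12 ± 1.22), which overlapped each other.

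**Figure D3:**
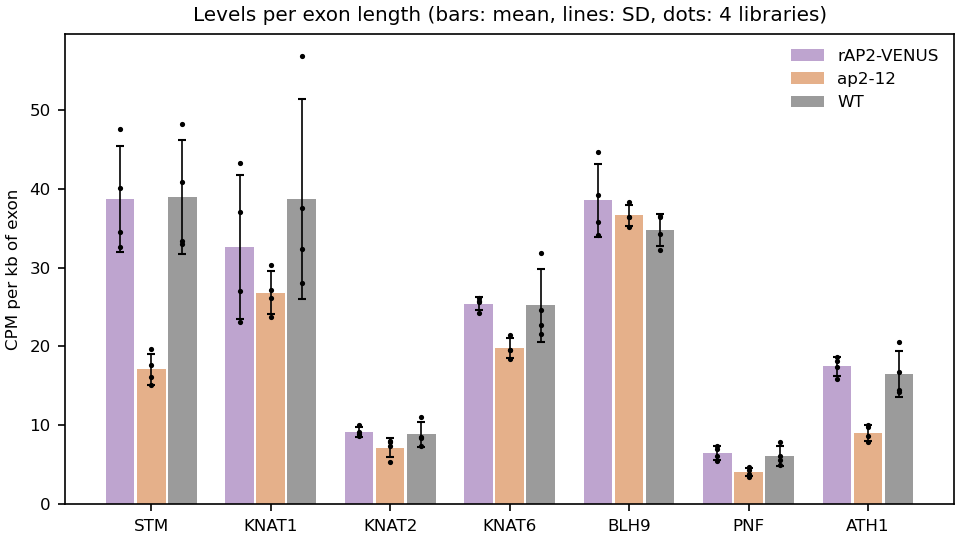
Levels of the 7 genes in CPM per kb of annotated exon (vertical axis) by genotype; bars are means, lines the SD and dots the 4 libraries. STM is among the leading genes in rAP2-VENUS and WT, at 38.7 and 38.9 CPM per kb, and 4th in ap2-12 at 17.1 CPM per kb.

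STM made up a smaller part of the summed class I KNOX level in ap2-12. Its part, per kb, was 33.5 to 40.4% in rAP2-VENUS, 23.3 to 25.4% in ap2-12 and 32.6 to 36.7% in WT, so the ap2-12 range lay apart from both others. The summed level of the 4 KNOX genes was 91.9 to 119 CPM per kb in rAP2-VENUS, 64.7 to 77.5 in ap2-12 and 91.4 to 148 in WT. The summed level of the 3 BELL genes was 57.6 to 68.0 CPM per kb in rAP2-VENUS, 47.7 to 52.7 in ap2-12 and 51.8 to 64.8 in WT, with the ap2-12 and WT ranges overlapping.

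Replicate number was tested with genotype in the model, and 29.5% of all genes were called. The 2 of 7 members called, KNAT1 (edgeR adjusted p = 0.00526) and STM (0.0428), are a share near that background. KNAT1 was highest in replicate 1 of each genotype, at 87.1 CPM in rAP2-VENUS, 61.1 in ap2-12 and 115 in WT, and STM in replicate 1 of ap2-12 and WT and replicate 2 of rAP2-VENUS. The clock gene LHY, which peaks around dawn, was highest in replicate 1 as well, with 94.3 CPM in rAP2-VENUS, 136 in ap2-12 and 224 in WT. In replicate 4 LHY had 12.7, 20.8 and 22.8 CPM in the same genotypes. Its sister gene CCA1 ranged from 17.2 to 62.5 CPM in rAP2-VENUS, 20.9 to 68.6 in ap2-12 and 18.8 to 98.1 in WT. FKF1, which peaks late in the day, was lowest in replicate 1, with 4.00 CPM in rAP2-VENUS, 1.45 in ap2-12 and 0.729 in WT. The part of time of day in the levels of KNAT1 and STM was not tested.

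The other KNOX and BELL genes were described from a list of 15, all kept by the filter. In ap2-12, 7 were lower and 1 was higher than in WT, against 9.59% and 5.65% of all genes. The median log2 fold change was -0.30 over the 15 genes and 0.00 over all genes. BLH2 (SAWTOOTH1) and BLH4 (SAWTOOTH2), which keep KNOX genes off in leaf margins, were both lower. BLH2 averaged 6.05 ± 1.01 CPM in ap2-12 and 27.8 ± 5.55 CPM in WT (SD, n = 4 each), a log2 fold change of -2.20 (SE 0.17, edgeR adjusted p = 3.94e-06). BLH4 fell by 0.63 (0.00178), BLH5 by 2.26 (0.000113) and BLH3 by 0.69 (0.000161). The groups of these 4 genes did not overlap, with ap2-12 lower, as was the case for 11% of all genes.

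Named after their values were seen, the class II KNOX genes KNAT3 (-0.26, adjusted p = 0.0384), KNAT4 (-0.85, 0.00549) and KNAT7 (-1.74, 0.0128), the last a regulator of secondary walls, were lower in ap2-12. The other class II gene on the list, KNAT5, had a positive difference that was not called (0.28, 0.238). KNAT7 had a low level, 0.410 ± 0.263 CPM in ap2-12 and 1.42 ± 0.197 CPM in WT. BEL1, which specifies ovule integuments, was the gene that was higher (0.48, adjusted p = 0.0334). KNAT3 kept its call on omission of a library only for ap2-12 replicate 3 and WT replicate 1 (otherwise adjusted p = 0.0706 to 0.146). BEL1 kept it only for replicate 1 of ap2-12 and replicates 1 and 2 of WT (otherwise 0.0536 to 0.0941). In rAP2-VENUS against WT, 1 of the 15 was called, BLH4 at 0.54 (SE 0.10, adjusted p = 0.0381), where 0.627% of all genes were called. Omission of any of the 8 libraries ended that call (0.079 to 0.125). With the replicate block BLH4 was called at 0.54 (SE 0.09, edgeR adjusted p = 0.009). Its log2 fold change was 0.51 to 0.57 over the alternatives. BLH1 stood at -0.35 (adjusted p = 0.317) in rAP2-VENUS. Against ap2-12, 8 of the 15 were higher in rAP2-VENUS and 2 lower. Of all genes, 11.7% were called higher in that comparison and 19.6% in either direction.

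**Figure D4:**
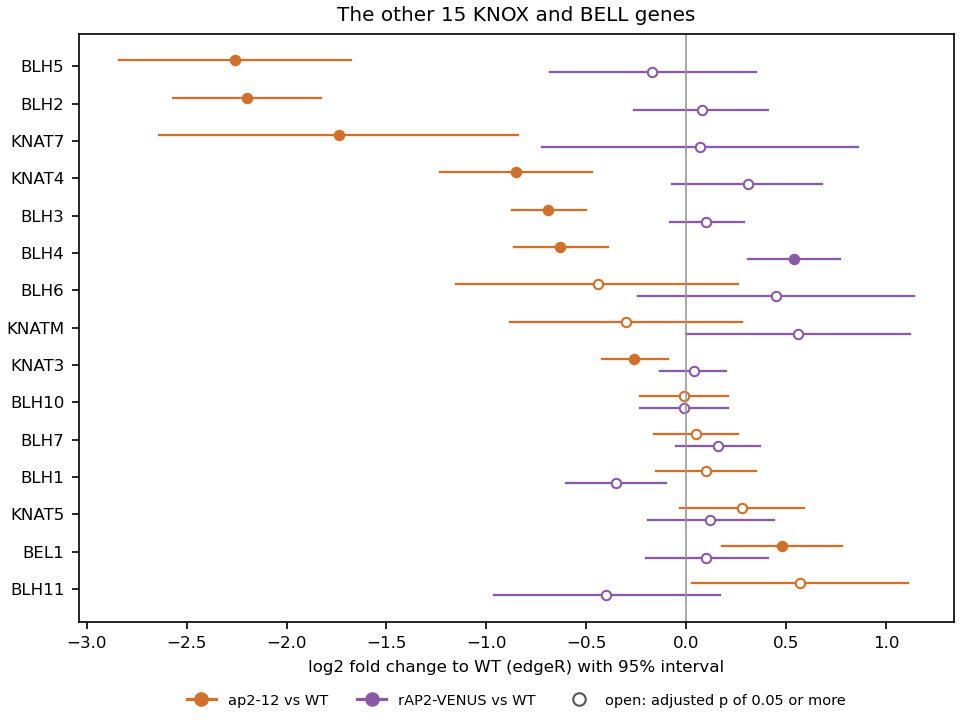
Log2 fold changes to WT (horizontal axis) with 95% intervals from edgeR for the other 15 KNOX and BELL genes, ordered by the ap2-12 value; filled points have an adjusted p under 0.05. BLH5 and BLH2 are lowest in ap2-12, at -2.26 and -2.20, and BLH4 is filled on opposite sides of 0.

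Known regulators of KNOX genes were on a list of 8. In ap2-12, 3 were lower and 0 higher than in WT, and 0 were called in rAP2-VENUS against WT. The shares of all genes were 9.59%, 5.65% and 0.627%. BOP2 and BOP1, which act at organ boundaries, and JLO, a boundary gene of the LBD family, were those lower. BOP2 averaged 12.9 ± 1.23 CPM in ap2-12 and 26.2 ± 4.16 CPM in WT (log2 fold change -1.02, SE 0.12, edgeR adjusted p = 0.000119). BOP1 fell by 0.95 (0.0277), with groups that overlapped, and JLO by 1.23 (0.0264). BOP1 kept its call only without ap2-12 replicate 2 and without WT replicate 4, and JLO only without ap2-12 replicate 3 and without WT replicate 2, with adjusted p up to 0.077 for BOP1 and 0.0679 for JLO otherwise. CUC2, which sets organ boundaries together with STM, stood at 0.40 (0.0588), and passed at adjusted p = 0.0326 without WT replicate 1 and 0.027 without ap2-12 replicate 4. In rAP2-VENUS BOP1 stood at -0.38 (0.852) and CUC3 at -0.25 (0.898). The repressors AS1 and AS2, which shut KNOX genes off in leaves, were not called in either comparison.

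Of 4 OVATE family genes, whose proteins bind TALE proteins, 3 were kept. OFP4 was higher in ap2-12, at 3.18 ± 0.310 CPM against 0.766 ± 0.125 CPM in WT (log2 fold change 2.04, SE 0.27, edgeR adjusted p = 0.000269). OFP2 stood at 0.75 (0.178) and OFP1 at 0.06 (0.903) in ap2-12. In rAP2-VENUS OFP4 stood at 0.79 (0.399) and OFP1 at 0.25 (0.934). OFP5 had 1 to 15 reads a library.

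Of 7 reported targets of KNOX proteins, 5 were kept. In ap2-12, 1 was higher and 1 lower than in WT, against 5.65% and 9.59% of all genes. GA2OX4, which inactivates gibberellin, averaged 4.98 ± 1.42 CPM in ap2-12 and 1.1 ± 0.584 CPM in WT (log2 fold change 2.12, SE 0.45, edgeR adjusted p = 0.00626). The lignin gene COMT1, which KNAT1 is known to bind, averaged 85.8 ± 27.3 CPM in ap2-12 and 281 ± 108 CPM in WT (-1.71, SE 0.29, adjusted p = 0.00181). CCoAOMT1, a second lignin gene bound by KNAT1, stood at -0.48 (0.253), and the gibberellin synthesis gene GA20OX1 at -0.22 (0.664). In rAP2-VENUS none was called, with GA20OX1 at -1.12 (0.156) and GA2OX4 at -1.59 (0.374). The cytokinin synthesis genes IPT7 and IPT5 had 0 reads and 0 to 1 reads a library, so that no difference was detectable at this depth.

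Markers of other tissues also differed between ap2-12 and WT, where 9.59% of all genes were called lower and 5.65% higher. The summed level of 7 xylem markers was 22.5 to 32.9 CPM in ap2-12 and 74.9 to 87.9 CPM in WT, and all 7 were lower. That of 6 photosynthetic tissue markers was 3150 to 4180 CPM in ap2-12 and 6140 to 8450 CPM in WT, with 5 lower. That of 5 carpel and ovule markers was 227 to 282 CPM in ap2-12 and 81.4 to 130 CPM in WT, with 5 higher. In rAP2-VENUS, where no member was called against WT, the xylem markers summed to 109 to 111 CPM. That range lay above the WT range, with 0 of 7 called in the fit without the replicate block. The median log2 fold change of the 7 xylem markers was 0.45, against 0.00 over all genes. The share of all genes without overlap is not given for this comparison. The photosynthetic, carpel and ovule, and tapetum markers summed in rAP2-VENUS to 6740 to 7710, 66.2 to 83.7 and 352 to 596 CPM, each overlapping WT. The 6 tapetum markers summed to 378 to 1010 CPM in ap2-12 and 203 to 408 CPM in WT, with 4 higher. All of these markers had reads in every library except 1 of the carpel and ovule markers. WUS, at -0.14 (adjusted p = 0.629), and CLV1, at -0.20 (0.235), were not called between ap2-12 and WT. Between rAP2-VENUS and ap2-12, 3 of the 4 meristem markers kept were called higher in rAP2-VENUS, against 11.7% of all genes. WUS was among them (0.56, edgeR adjusted p = 0.0347), and CLV1 was not (0.30, 0.0668). The part of tissue shares in the levels of STM, ATH1, PNF and KNAT6 was not tested.

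The genes most like each called member over the 12 libraries were taken from 7073 other genes with a symbol and a mean of at least 5 CPM, by the root mean square difference of log2 CPM centred on the mean of each gene. For STM they were the boundary gene BOP2 (0.129), PSB28 (0.129), which acts in photosystem II assembly, and LACS2 (0.139), an enzyme of cutin synthesis. For ATH1 they were XDH2 (0.129), MEE31 (0.136) and PRORP1 (0.140), which encode a xanthine dehydrogenase, a phosphomannose isomerase and an organelle RNase P. For PNF they were the plastid thioredoxin reductase gene NTRC (0.086), the flowering regulator SPL9 (0.093) and the aquaporin gene PIP2;5 (0.098), and for KNAT6 the kinase gene NEK3 (0.098), the starch debranching gene DBE1 (0.099) and UBC18 (0.105). By the same measure ATH1 was the member nearest to STM (0.211) and BLH9 the farthest (0.567). Because 1 difference between genotypes makes up most of the pattern of STM and ATH1, genes with a like difference come out near, and these values are a description.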

How the data were processed

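RNA of shoot apices was sequenced as single reads of 150 bp, per the labels. The authors deposited raw read counts per gene, a column per library, and the file headers name TAIR10. The submitters' processing notes list the tools HTSeq, SAMtools and TopHat2. Their roles, versions, settings and strand handling are not given in the sources used here. Near-identical gene copies may share reads. Symbols came from RefSeq (TAIR10.1), where 26719 identifiers matched.

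Genes were kept with filterByExpr (18807 genes), scaled by TMM and fitted over all 12 libraries with genotype as the only term in edgeR 4.0.16 (glmQLFit, glmQLFTest; R 4.3.3, limma 3.58.1, DESeq2 1.42.0). SE is the log2 fold change over the square root of F, and intervals are at 95%. The steps were tested on simulated counts that held no effect of replicate number, so that test does not cover such an effect. P-values measure the spread between libraries the labels call biological replicates; no libraries of a genotype matched within sampling noise (chi-square per degree of freedom 5.00 to 45.8).

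The members, lists and tests were chosen with earlier results of these data known. Named were all members, AP2, the clock genes LHY, CCA1 and FKF1, up to 4 genes of each related list with the smallest adjusted p in ap2-12 vs WT and up to 2 in rAP2-VENUS vs WT, and the 3 genes nearest to each called member; AS1, AS2 and the other genes so marked were added after their values were seen. Same-numbered libraries of rAP2-VENUS and WT deviated together (correlations 0.63, 0.23, 0.20 and 0.43 across genes), so the numbers pair these, and the fit with the replicate block changed no member's call there. Alternatives were the replicate block, other scalings, filters and tests, fits of the compared genotypes alone and omission of libraries.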

Additional observations from a re-analysis of the deposited data

How the results depend on the processing

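The calls of STM and ATH1 in both comparisons with ap2-12, and of PNF against rAP2-VENUS, held under all 17 alternatives. The number of members called in ap2-12 vs WT was 3 to 5 of 7 under the alternatives other than single-library omissions, and 2 to 4 under those. It was 2 without ap2-12 replicate 2, without ap2-12 replicate 4 and without WT replicate 1, where PNF and KNAT6 lost their calls. In rAP2-VENUS vs ap2-12 it was 4 or 5, and 3 to 4 under single-library omissions, and in rAP2-VENUS vs WT it was 0 throughout. KNAT6 in ap2-12 vs WT lost its call with both other scalings, limma-voom, both other filters and the fit of the compared genotypes alone (adjusted p = 0.0503 to 0.123); the cause was not tested. The replicate block added KNAT1 in ap2-12 vs WT (-0.48, adjusted p = 0.00667) and KNAT2 in rAP2-VENUS vs ap2-12 (0.36, adjusted p = 0.0355), and with it 5 members were called in each. Same-numbered libraries of ap2-12 and WT correlated at 0.60, -0.01, 0.47 and 0.39, and those of rAP2-VENUS and ap2-12 at 0.54, 0.06, 0.05 and 0.56, so not every pair was over 0.1 and the numbers were not taken to pair these libraries, although levels of many genes differed by replicate number across the genotypes. The block also moved the number of all genes called to 5419 in ap2-12 vs WT, 424 in rAP2-VENUS vs WT and 6215 in rAP2-VENUS vs ap2-12, against 2866, 118 and 3686 without it; DESeq2 called 325 in rAP2-VENUS vs WT. Leaving out replicate 1 of every genotype, chosen after seeing the data along with the alternatives for genes that are not members, gave 3, 0 and 4 members called.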
